A study of Mus musculus with 6 samples.

Results

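The genes described here are Eras, Tcl1, Akt1, Akt2, Inpp5d, Pik3ca, Pik3cb and Pik3r1, which code for ERAS, TCL1 and parts of the PI3K-AKT pathway. They were taken by gene name, and they are 8 of the 24736 genes measured. All 8 were present in the data, and all 8 passed the filter on low counts that left 14468 genes to be tested. RNA was sequenced from mouse embryonic stem cells (ESCs, 0 h) and from epiblast-like cells (EpiLCs, 48 h of differentiation), with 3 libraries of each, which the study calls biological replicates. Both groups are the WT line of the study, an XY line named HM1 TetON, which carries the rtTA gene of a doxycycline-inducible system, so the 6 libraries represent a single genotype. The ESCs grew in 10% serum on mitotically inactivated fibroblast feeders, together with LIF at 1000 U/ml, a cytokine that sustains naive pluripotency. The EpiLCs grew without serum in N2B27 medium, with bFGF at 10 ng/ml and LGK974 at 5 µM, an inhibitor of the acyltransferase porcupine and thereby of WNT secretion, after removal of feeders by their adhesion. Time, serum, LIF, feeders, bFGF and LGK974 all changed together between the groups and cannot be told apart.

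Class I PI3Ks pair a catalytic subunit with a regulatory subunit and phosphorylate the membrane lipid PIP2 to PIP3. PIP3 recruits AKT kinases to the membrane, where PDK1 and mTORC2 phosphorylate them, and active AKT phosphorylates TSC2, GSK3 and FOXO factors, among others. Lipid phosphatases act on PIP3 in turn, among them SHIP1, the product of Inpp5d. In mouse ESCs the pathway is known for sustaining growth and self-renewal. ERAS is a RAS-like GTPase that is constitutively active, binds the PI3K catalytic subunit and is known for its role in the tumour-like growth of ESCs, and TCL1 is a small protein that binds AKT and raises its activity.

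The libraries held between 16967741 and 35096210 expected counts. All 6 naive ESC markers (Nanog, Esrrb, Tfcp2l1, Klf4, Zfp42 and Tbx3) were lower in EpiLCs, with a median log2 fold change of -6.10, and all 6 EpiLC markers (Fgf5, Pou3f1, Otx2, Dnmt3b, Sox3 and Sall2) were higher, with a median of 2.74, so the labelled cell types had their defining markers. Markers of other cells also moved with the groups. The level of 14 fibroblast markers was summed in TPM, a unit that scales read counts by transcript length and library size. It was 380, 2007 and 134 in ESC replicates 1, 2 and 3, and between 84.8 and 91.8 for the EpiLC libraries. ESC replicate 2 thus stood apart in fibroblast RNA, led by Lox, Col1a1, Acta2 and Col1a2. Of the 12 markers tested, 6 were lower in EpiLCs and 0 higher, against 22.8% called lower of all genes tested. Lox, Col1a1, Col1a2 and Col6a3 lost their calls without EpiLC replicate 1 (edgeR adjusted p between 0.0595 and 0.0947). Col1a1, Col1a2 and Col6a3 also lost theirs without EpiLC replicate 3 (edgeR adjusted p between 0.0531 and 0.0812). Primitive endoderm markers summed to between 39.5 and 72.9 TPM in ESCs and between 10.7 and 11.2 TPM in EpiLCs (5 of 7 lower). The 2-cell-like markers summed to between 8.55 and 27.1 TPM in ESCs and between 1.09 and 1.48 TPM in EpiLCs (4 of 4 tested lower). Both counts stand against the same 22.8% of all genes tested. In these bulk libraries, fewer cells of a type and less RNA per cell cannot be told apart.

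Promoter sequences are shown for Eras, which did not pass the test, the gene with the widest difference (Tcl1), and the phosphatase and the catalytic subunit that were lower in EpiLCs (Inpp5d and Pik3cb), so that they can be read against the expression values that follow. The window of Inpp5d lies before the annotated start of the gene, and the start of the shorter form known from ESCs, which lies inside the gene, is not shown. Each is the 250 bases before the RefSeq start site on GRCm38.p6, the assembly of mm10, written 5′ to 3′ on the strand of the gene, with CG dinucleotides, the site of most DNA methylation in mammals, in capitals.
Eras, chrX:7928608-7928857, - strand: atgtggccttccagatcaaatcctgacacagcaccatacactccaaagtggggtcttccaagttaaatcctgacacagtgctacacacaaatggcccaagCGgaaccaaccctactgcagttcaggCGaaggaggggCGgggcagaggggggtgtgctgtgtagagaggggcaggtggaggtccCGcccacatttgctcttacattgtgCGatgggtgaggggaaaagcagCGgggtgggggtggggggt
Tcl1, chr12:105222738-105222987, - strand: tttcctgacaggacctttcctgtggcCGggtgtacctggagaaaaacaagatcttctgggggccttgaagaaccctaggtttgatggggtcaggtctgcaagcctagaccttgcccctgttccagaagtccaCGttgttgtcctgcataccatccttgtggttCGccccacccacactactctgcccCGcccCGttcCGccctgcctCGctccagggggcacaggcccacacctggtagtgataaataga
Inpp5d, chr1:87620062-87620311, + strand: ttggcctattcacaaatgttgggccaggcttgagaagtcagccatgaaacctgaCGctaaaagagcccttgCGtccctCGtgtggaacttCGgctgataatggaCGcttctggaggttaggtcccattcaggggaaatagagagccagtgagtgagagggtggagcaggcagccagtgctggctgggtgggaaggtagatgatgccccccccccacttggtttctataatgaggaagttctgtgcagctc
Pik3cb, chr9:99140212-99140461, - strand: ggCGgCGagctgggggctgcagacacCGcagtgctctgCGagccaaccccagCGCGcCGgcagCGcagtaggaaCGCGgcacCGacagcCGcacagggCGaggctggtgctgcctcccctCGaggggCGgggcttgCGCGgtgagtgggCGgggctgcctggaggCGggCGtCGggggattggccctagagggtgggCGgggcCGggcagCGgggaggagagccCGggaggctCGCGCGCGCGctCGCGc
The Eras promoter held 6 CG dinucleotides, that of Tcl1 7 and that of Inpp5d 5, close to the median of 6 over 32851 RefSeq start windows of 27025 genes. Pik3cb, with 32, lay above the upper quartile of 16, as did the first Pik3r1 start with 30, Pik3ca with 19 and 1 of the 2 Akt1 starts with 31. The other Akt1 start held 7, the other Pik3r1 start 6 and the most upstream Akt2 start 10. Genes lower in EpiLCs were thus found both near the median (Tcl1 and Inpp5d) and above the upper quartile (Pik3cb), as were genes that did not pass the test (Eras near the median and Pik3ca above the quartile).

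Both strands of the 8 promoters, 1 window per gene, were searched for letters that transcription factors of pluripotency or of the AKT pathway are known to bind, a choice made with the expression values known. The octamer ATGCAAAT occurs in 1.6% of all windows, the SOX motif AACAATG in 3.29%, the ESRRB motif CAAGGTCA in 1.33%, the STAT motif TTCCNGGAA in 0.913% and the TATA motif TATAAA in 12.4%, and none of these was found in the 8. The KLF motif GGGTGTG (6.93% of windows) was found once, 101 bases before the Eras start. The FOXO motif GTAAACA (3.17% of windows) was found once, as TGTTTAC 161 bases before the Akt1 start. These are matches of letters in short windows, and binding was not analysed here.

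Of the 8 genes, 4 were lower in EpiLCs than in ESCs (Tcl1, Inpp5d, Pik3cb and Akt2), 0 were higher and 4 did not pass the test (Eras, Akt1, Pik3ca and Pik3r1). Over all 14468 genes tested with edgeR's quasi-likelihood test at an adjusted p of at most 0.05, 45.4% were called, 22.8% lower and 22.6% higher, so a count of 4 called among 8 is near the background. Without EpiLC replicate 1 the genes called in all fell to 4244 from 6571, while the same 4 of the 8 were called. The 4 lower genes were also those whose 3 ESC and 3 EpiLC values in CPM (counts scaled to library size) did not overlap, against 59.3% of all genes tested. Only Tcl1 and Inpp5d fell by more than 1 on the log2 scale, against 11.5% of all genes tested. Inpp5d lay near that cut, with values between -1.19 and -0.85 when single libraries were left out. The median log2 fold change of the 8 genes was -0.24, and that of all genes tested was -0.0017. Of the 8 genes, the word ESC-specific described Tcl1 alone. It did not hold for Eras, whose mean was not lower in EpiLCs, nor for Inpp5d and the AKT and PI3K genes, which were expressed in both groups.

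**Figure D1:**
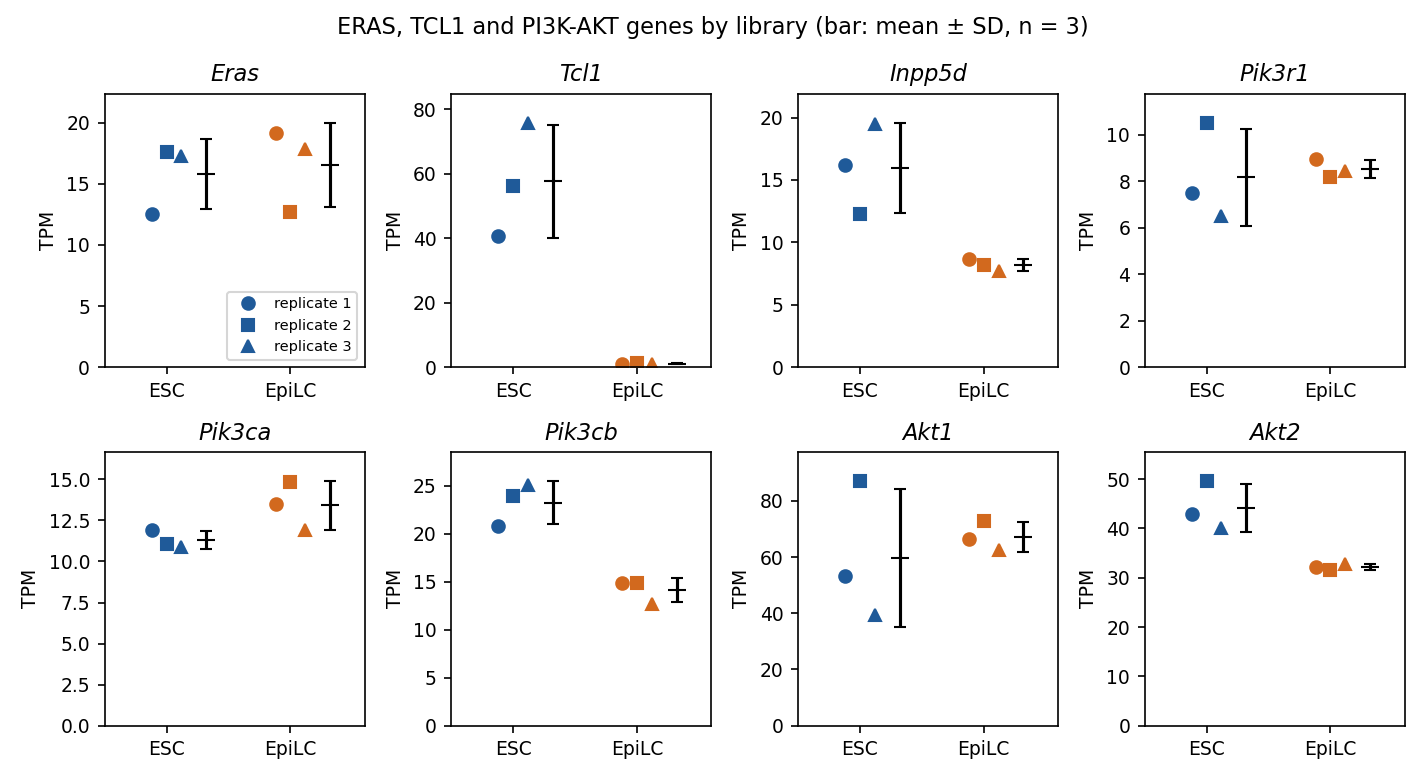
TPM of each of the 8 genes (vertical axis, from 0) in the 3 ESC libraries (blue) and the 3 EpiLC libraries (orange), with a symbol per replicate number and a black bar for the mean ± SD. Tcl1, Inpp5d, Pik3cb and Akt2 have EpiLC values below every ESC value, and the values of the other 4 genes overlap.

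Eras, on chromosome X from 7924276 to 7928607 on the minus strand of mm10, has 2 exons, of which 1 is coding, and 227 codons. In replicates 1, 2 and 3 its TPM was 12.51, 17.6 and 17.3 for ESCs and 19.15, 12.66 and 17.86 for EpiLCs, an order of replicates that is kept for every gene here. The lowest ESC library and the lowest EpiLC library were nearly equal, and the groups overlapped over almost their whole ranges. The ESC mean was 15.8 ± 2.86 TPM and the EpiLC mean 16.6 ± 3.44 TPM (SD, n = 3). The log2 fold change was 0.02 (SE 0.23, edgeR adjusted p = 0.955), with a 95% interval from -0.52 to 0.55. The fall of Tcl1 and of the naive markers lies far outside that interval. Leaving out single libraries gave values between -0.14 and 0.19, with the sign negative without ESC replicate 1 (-0.14), EpiLC replicate 1 (-0.10) or EpiLC replicate 3 (-0.04).

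ERAS is one of several RAS-family GTPases that these cells express, and its share of their RNA was small. Eras, Hras, Nras, Rras, Rras2 and Mras, the 6 RAS-family genes described here, summed to between 241 and 271 TPM in ESCs and between 286 and 298 TPM in EpiLCs. Eras made up 6.11 ± 1.31% of this sum in ESCs and 5.67 ± 1.15% in EpiLCs (SD, n = 3), a difference of -0.44 percentage points (two-sided exact permutation test, p = 0.5, where 0.1 is the smallest p that 3 against 3 libraries allow). That difference is smaller than either SD and was positive without ESC replicate 3 (0.10 points) or EpiLC replicate 2 (0.23 points). Nras, with means of 103 and 118 TPM, was the most abundant of the 6 in both groups. Of these genes, 2 were higher in EpiLCs, 2 were lower and 2 did not pass the test, whereas 45.4% of all genes tested were called.

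Mras was the gene of these 6 that moved most. The GTPase it codes for works with SHOC2 in the activation of RAF kinases. Its TPM was 7.84, 16.55 and 11.09 in the ESC libraries and 0.3, 0.47 and 0.46 in the EpiLC libraries, with a log2 fold change of -4.89 (SE 0.35, edgeR adjusted p = 1.58e-04). Of the 6 genes, it was therefore Mras and not Eras that was nearly absent from EpiLCs. Hras was higher in EpiLCs by 0.48 on the log2 scale (SE 0.11, edgeR adjusted p = 0.0108). Rras2 (0.38, edgeR adjusted p = 0.0382) and Rras (-0.52, edgeR adjusted p = 0.0445) lay near the threshold, and each lost its call when any of 5 single libraries was left out, with adjusted p up to 0.102 for Rras2 (without EpiLC replicate 1) and 0.114 for Rras (without EpiLC replicate 3). Nras (0.14, edgeR adjusted p = 0.0766) did not pass the test, but did with limma on log2(TPM + 1) (adjusted p = 0.0216) and log2(TPM + 0.1) (adjusted p = 0.0230).

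Tcl1, on chromosome 12 from 105216753 to 105222737 on the minus strand, has 4 exons and 116 codons and showed the widest difference of the 8 genes. The ESC libraries held 561, 595 and 1358 counts of it, and the EpiLC libraries 19, 28 and 22. These correspond to 40.77, 56.22 and 75.76 TPM in ESCs and to 0.87, 1.32 and 1.13 TPM in EpiLCs. Every ESC library was high and every EpiLC library low, and the lowest ESC value was many times the highest EpiLC value. The ESC mean was 57.6 ± 17.5 TPM and the EpiLC mean 1.11 ± 0.226 TPM (SD, n = 3). Tcl1 fell by 5.74 on the log2 scale (SE 0.31, 95% interval -6.48 to -5.01, edgeR adjusted p = 7.83e-05), which is 53.5-fold. Among the naive markers, the nearest value was that of Tfcp2l1 (-5.76).

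The other members of the TCL1 family did not share this pattern. Mtcp1, a relative whose product also binds AKT, was low in both groups, with 2.14, 1.84 and 1.29 TPM in ESCs and 4.12, 3.44 and 3.68 TPM in EpiLCs. It was higher in EpiLCs by 1.06 on the log2 scale (SE 0.25, edgeR adjusted p = 0.0129), a call that was lost without EpiLC replicate 1 (adjusted p = 0.0596). Tcl1b1, Tcl1b2, Tcl1b3, Tcl1b4 and Tcl1b5, which lie next to Tcl1, had 0 counts in all 6 libraries. The summed TPM of the family was therefore almost all Tcl1 in ESCs, between 42.9 and 77.1 TPM, whereas in EpiLCs, where it was between 4.76 and 4.99 TPM, most of it was Mtcp1.

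The chromosomal neighbours of Eras and Tcl1 were examined as the 5 annotated genes on each side. Around Eras all 10 were tested, with 3 higher and 3 lower in EpiLCs, against 22.6% and 22.8% of all genes tested. The largest change was that of Pim2, which codes for a serine/threonine kinase with substrates in common with AKT. Its TPM was 126.17, 61.1 and 104.54 in ESCs and 959.4, 875.26 and 982.65 in EpiLCs, a log2 fold change of 3.22 (SE 0.26, edgeR adjusted p = 2.16e-04). Pim2 lies 40.8 kb from Eras. Hdac6, on the other side and 1.51 kb away, had a log2 fold change of 0.03 (SE 0.10, edgeR adjusted p = 0.850). Glod5 (-2.71), Was (-2.12) and Gata1 (-1.78) were lower in EpiLCs, and Pqbp1 (0.43) and Suv39h1 (0.45) were higher. The call of Was was lost without EpiLC replicate 1 (edgeR adjusted p = 0.0567) or 2 (0.0506), and that of Suv39h1 without ESC replicate 1 or any EpiLC replicate (up to 0.123). The end of Pcsk1n overlaps that of Eras by 135 bases on the opposite strand, and the authors counted reads by strand.

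Around Tcl1, 7 of the 10 neighbours had 0 counts in every library, the 5 Tcl1b genes among them. Of the 3 tested, the long noncoding RNA gene Tunar was higher in EpiLCs (0.813 against 3.86 TPM, log2 fold change 2.14, SE 0.31, edgeR adjusted p = 0.00202), and D430019H16Rik (0.62) and Bdkrb2 (-0.87) did not pass the test. Tcl1 was thus the single gene of this stretch that was lower in EpiLCs by that test.

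**Figure D2:**
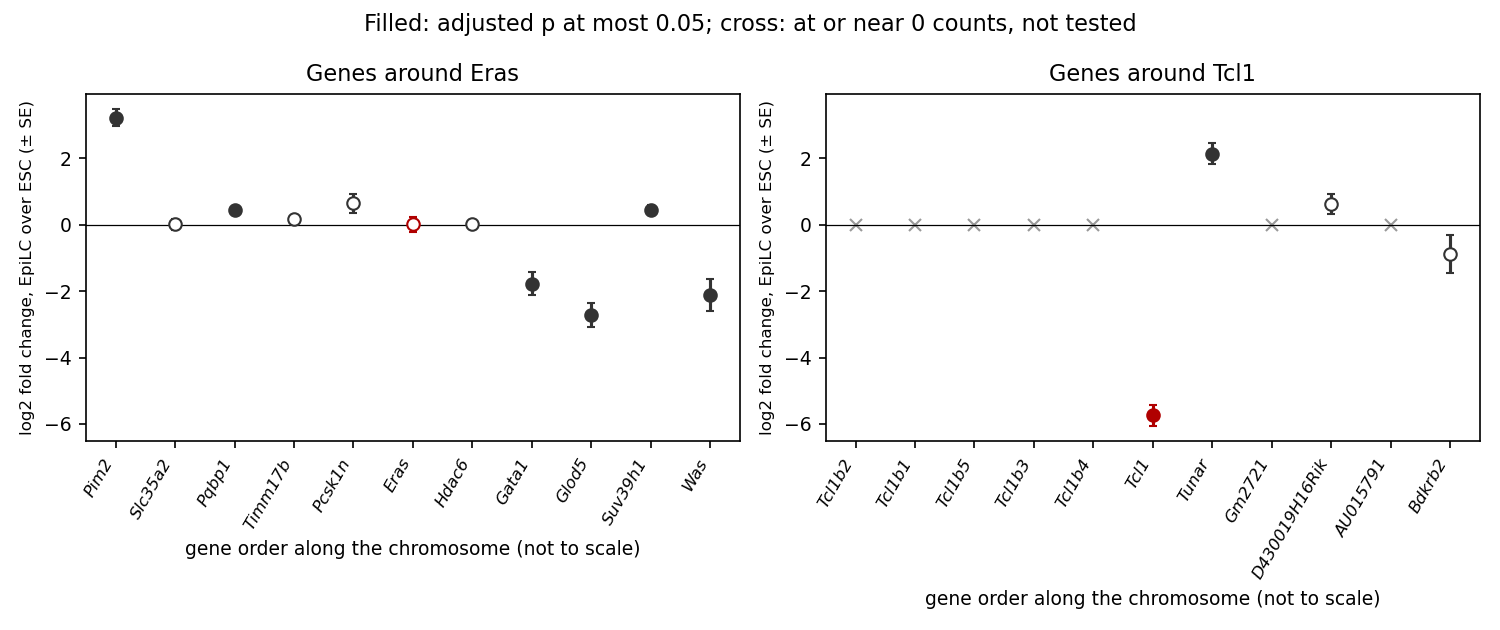
Log2 fold change of EpiLC over ESC with its SE (vertical axis) for Eras, Tcl1 (red) and the 5 annotated genes on each side, in chromosomal order and not to scale. Filled points passed an adjusted p of 0.05, open points did not, and crosses, drawn at 0, mark genes that were not tested. Pim2 stands at 3.22 and Eras at 0.02, and Tcl1 at -5.74 lies among genes mostly without counts.

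The genes most like Eras, Tcl1 and Inpp5d over the 6 libraries were ranked by Pearson's r of log2 CPM, as a description over libraries that share their 2 groups. For Tcl1 they were Dppa5a (r = 0.999), Nphs1, Gjb5, Notch4 and Tbc1d25 (r = 0.999), all lower in EpiLCs. Dppa5a, which codes for an RNA-binding protein known as an ESC marker, went from 1856 to 255 TPM. For Inpp5d they were Hic2 (r = 0.998), Decr1, Hibadh, Brpf3 and Aldh6a1 (r = 0.995). All of these were also lower in EpiLCs, although Decr1 lost its call without EpiLC replicate 1 (edgeR adjusted p = 0.0542). For Eras the genes most alike were Fnta (r = 0.983), Kpna2, Fam45a, Zfp790 and Dcaf11 (r = 0.944), with log2 fold changes of 0.03 or less. Fnta codes for a subunit of the enzymes that prenylate RAS proteins. Its TPM ranged only from 119 to 131, so the likeness to Eras is one of order and not of amplitude. The ranking was not stable, since after leaving out any single library at most 2 of the 5 genes for Eras, 3 for Tcl1 and 2 for Inpp5d stayed among the nearest 5.

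Among the catalytic subunits, Pik3ca codes for p110α, Pik3cb for p110β, Pik3cd for p110δ and Pik3cg for p110γ. Pik3cb was lower in EpiLCs. The ESC libraries had 20.78, 23.95 and 25.04 TPM and the EpiLC libraries 14.84, 14.92 and 12.66 TPM, so the groups were well apart and varied little within. The mean went from 23.3 ± 2.21 to 14.1 ± 1.28 TPM (SD, n = 3), with a log2 fold change of -0.77 (SE 0.11, 95% interval -1.02 to -0.52, edgeR adjusted p = 0.00163). Its counts were in part not whole numbers (1053.33 in ESC replicate 1, for example), unlike those of the other 7 genes, which means that some of its reads were divided with another locus.

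Pik3ca did not pass the test. The ESC libraries had 11.91, 11.08 and 10.88 TPM and the EpiLC libraries 13.53, 14.82 and 11.89 TPM, with the highest ESC and the lowest EpiLC value nearly equal. The log2 fold change was 0.20 (SE 0.090, edgeR adjusted p = 0.116), with a 95% interval from -0.02 to 0.41. Pik3cd was higher in EpiLCs, its mean going from 4.83 ± 1.21 to 8.46 ± 0.406 TPM (SD, n = 3, log2 fold change 0.76, SE 0.19, edgeR adjusted p = 0.0168). That call was lost without EpiLC replicate 1 (adjusted p = 0.0581) or 3 (adjusted p = 0.0577). Pik3cg was at most 0.03 TPM in any library and was not tested.

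The summed TPM of the catalytic subunits was 38.51, 38.51 and 41.13 in ESCs and 36.83, 37.81 and 33.44 in EpiLCs. The total was thus lower in each EpiLC library than in each ESC library, but moved little, while its makeup changed. Pik3cb made up 59.0 ± 4.42% of the sum in ESCs and 39.2 ± 1.24% in EpiLCs (SD, n = 3), a difference of -19.8 points. Pik3ca went from 28.7 ± 2.24% to 37.2 ± 1.86%, a difference of 8.45 points, and Pik3cd from 12.3 ± 3.05% to 23.6 ± 2.68%, a difference of 11.3 points. For each of the 3 subunits the groups did not overlap, and the two-sided exact permutation test gave p = 0.1, the smallest it can give here. Pik3cb was thus the most abundant catalytic subunit by RNA in all 6 libraries, by less in the EpiLC libraries, where it took 40.3, 39.5 and 37.9% and Pik3ca 36.7, 39.2 and 35.6%.

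**Figure D3:**
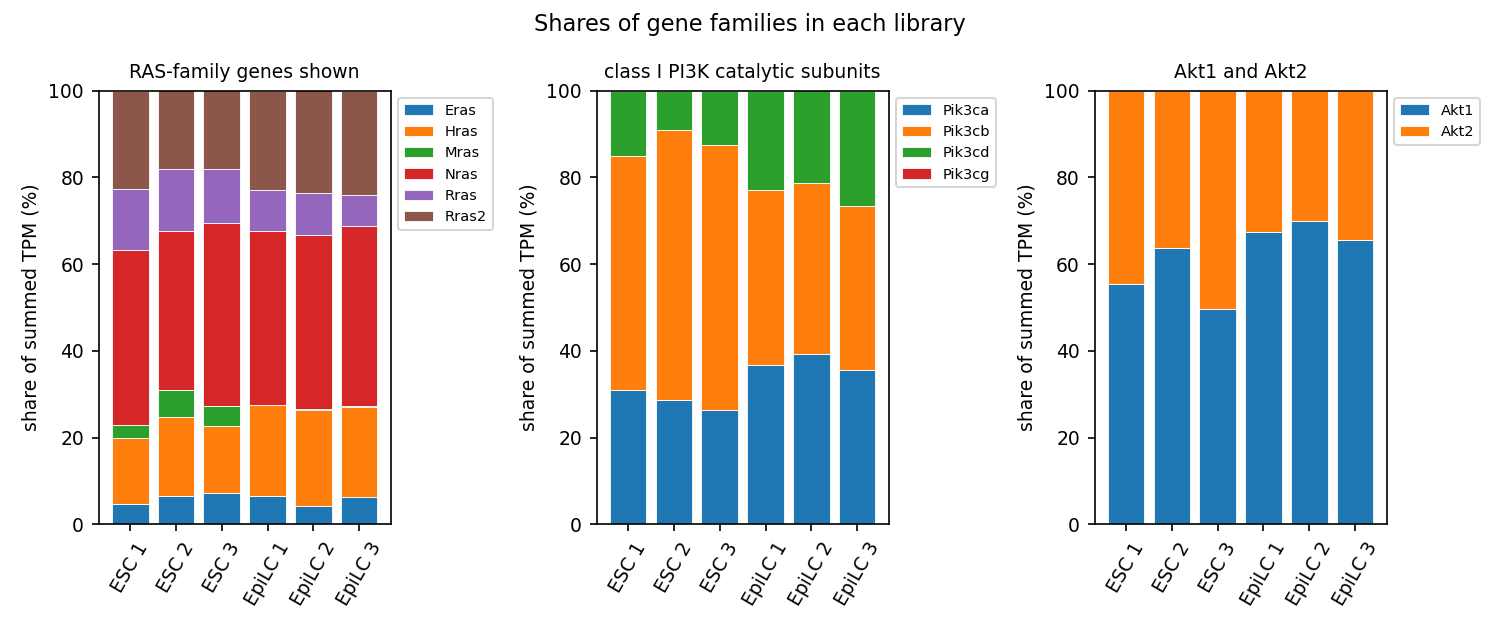
Share of the summed TPM (vertical axis, in percent) that each gene takes within the 6 RAS-family genes, the class I PI3K catalytic subunits and the pair Akt1 and Akt2, with a stacked bar for each of the 3 ESC and 3 EpiLC libraries. The share of Pik3cb goes from a mean of 59.0% to 39.2%, and that of Eras from 6.11% to 5.67%.

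Pik3r1 codes for the regulatory subunits p85α, p55α and p50α, which stabilise and inhibit the catalytic subunit. Its TPM was 7.5, 10.51 and 6.5 in ESCs and 8.94, 8.19 and 8.43 in EpiLCs, with all EpiLC values inside the ESC range. The log2 fold change was 0.01 (SE 0.17, 95% interval -0.39 to 0.42, edgeR adjusted p = 0.954). It was negative without ESC replicate 1 (-0.06), ESC replicate 3 (-0.11) or EpiLC replicate 1 (-0.02). Pik3r2, which codes for p85β, went from 31.8 to 45.3 TPM (log2 fold change 0.46, SE 0.077, edgeR adjusted p = 0.00347), and was the most abundant regulatory subunit in both groups.

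Pik3r3, which codes for p55γ, was at 4.39, 9.19 and 3.22 TPM across the ESC libraries and at 16.62, 16.58 and 14.92 TPM across the EpiLC libraries. Its log2 fold change was 1.48 (SE 0.35, edgeR adjusted p = 0.0142), a call lost without ESC replicate 1 (adjusted p = 0.0507). ESC replicate 2, with the most fibroblast RNA, had the highest of the ESC values, and without it the log2 fold change was 2.03 (edgeR adjusted p = 1.83e-04). With these rises the regulatory genes summed to between 40.2 and 55.1 TPM in ESCs and between 70.1 and 72.1 TPM in EpiLCs. Pik3r5, a regulatory subunit of p110γ, had means of 0.887 and 0.977 TPM (log2 fold change 0.09, edgeR adjusted p = 0.777), and Pik3r6 was too low to test. Of the class II and class III genes, which make other 3-phosphoinositides, 3 of 4 tested were lower in EpiLCs and 0 were higher, namely Pik3c2b (-1.14), Pik3c3 (-0.48) and Pik3r4 (-0.32), against 22.8% called lower of all genes tested. Pik3r4 was not called without EpiLC replicate 1 (edgeR adjusted p = 0.0529).

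Inpp5d lies on chromosome 1 from 87620312 to 87720510 on the plus strand, with 27 exons and 1191 codons. SHIP1, its product, is best known from blood cells, and a shorter form made from a start inside the gene is known from ESCs. The ESC libraries had 16.23, 12.26 and 19.45 TPM and the EpiLC libraries 8.65, 8.15 and 7.72 TPM. The EpiLC libraries lay close together and all below the lowest ESC library, which was replicate 2. Inpp5d fell by 1.03 on the log2 scale (SE 0.17, 95% interval -1.43 to -0.62, edgeR adjusted p = 0.00346), from a mean of 16.0 ± 3.60 to 8.17 ± 0.465 TPM (SD, n = 3). Values per gene cannot separate its forms. The ratio of CPM to TPM, set relative to the median gene of each library, follows the transcript length that RSEM assigned. For Inpp5d its highest value among the 6 libraries was 1.40% above its lowest, against 0.272% for the median gene tested. The same measure was 1.40% for Akt2 and 1.70% for Tcl1, and it does not compare the groups.

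Blood cell markers were read beside Inpp5d. Ptprc, which codes for the pan-leukocyte antigen CD45, was at most 0.12 TPM in any library, Csf1r at most 0.19 TPM, and Tyrobp was at 0 in all 6 libraries. The 10 markers summed to between 40.1 and 65.9 TPM in ESCs and between 20.6 and 27.3 TPM in EpiLCs, mostly through Laptm5 in ESCs (33.9 to 57.9 TPM) and Coro1a in EpiLCs (14.9 to 21.7 TPM), and of the 6 tested 2 were higher and 2 lower, against 45.4% called of all genes tested. The higher ones were Coro1a (2.03, edgeR adjusted p = 5.36e-04) and Itgam (2.10, edgeR adjusted p = 0.00720), the latter at most 0.88 TPM. Of the lower ones, Cd3e (-1.35, edgeR adjusted p = 0.0423) lost its call without any single library other than EpiLC replicate 3 (adjusted p up to 0.142). Laptm5, a lysosomal membrane protein gene on this list, fell with Inpp5d, by 4.18 on the log2 scale (SE 0.23, edgeR adjusted p = 8.18e-05), and the part of blood cells in the difference in Inpp5d was not tested. ESC replicate 2, with the most fibroblast RNA, had the lowest Inpp5d of the ESC libraries, and without it the log2 fold change was -1.19. Leaving out each library in turn gave Inpp5d values between -1.19 and -0.85.

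Inppl1, which codes for SHIP2 and is the closest relative of Inpp5d, was more abundant and did not pass the test. Its mean was 46.7 ± 0.943 TPM in the ESC libraries and 50.3 ± 1.35 TPM in the EpiLC libraries (SD, n = 3), with a log2 fold change of 0.05 (SE 0.055, edgeR adjusted p = 0.486). Of the 7 phosphatase genes tested of 8 described here, 1 was higher in EpiLCs, 3 were lower and 3 did not pass the test, so 57.1% were called, against 45.4% of all genes tested. Besides Inpp5d, the lower genes were Inpp5k (-0.54, edgeR adjusted p = 0.00498) and Synj1 (-0.41, edgeR adjusted p = 0.0223). Synj1 kept its call in 9 of 13 alternatives. Among others, it was not called without EpiLC replicate 1 (edgeR adjusted p = 0.0816) or 3 (edgeR adjusted p = 0.0773). Inpp5j, at most 0.31 TPM, was called higher (1.92, edgeR adjusted p = 0.0460), but the call held in only 5 of 12 alternatives and was lost without ESC replicate 1 or any EpiLC replicate, with adjusted p up to 0.132, and the log2 fold change was 3.04 without ESC replicate 3. Inpp5e (0.36, edgeR adjusted p = 0.0503) and Inpp4a (-0.39, edgeR adjusted p = 0.0899) did not pass the test, although Inpp5e did in 4 of 13 alternatives, namely without ESC replicate 1 (adjusted p = 0.0405), with upper-quartile normalization (0.0398), with DESeq2 (0.0334) and with at least 10 counts in every library (0.0488). Inpp4b was too low to test.

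**Figure D4:**
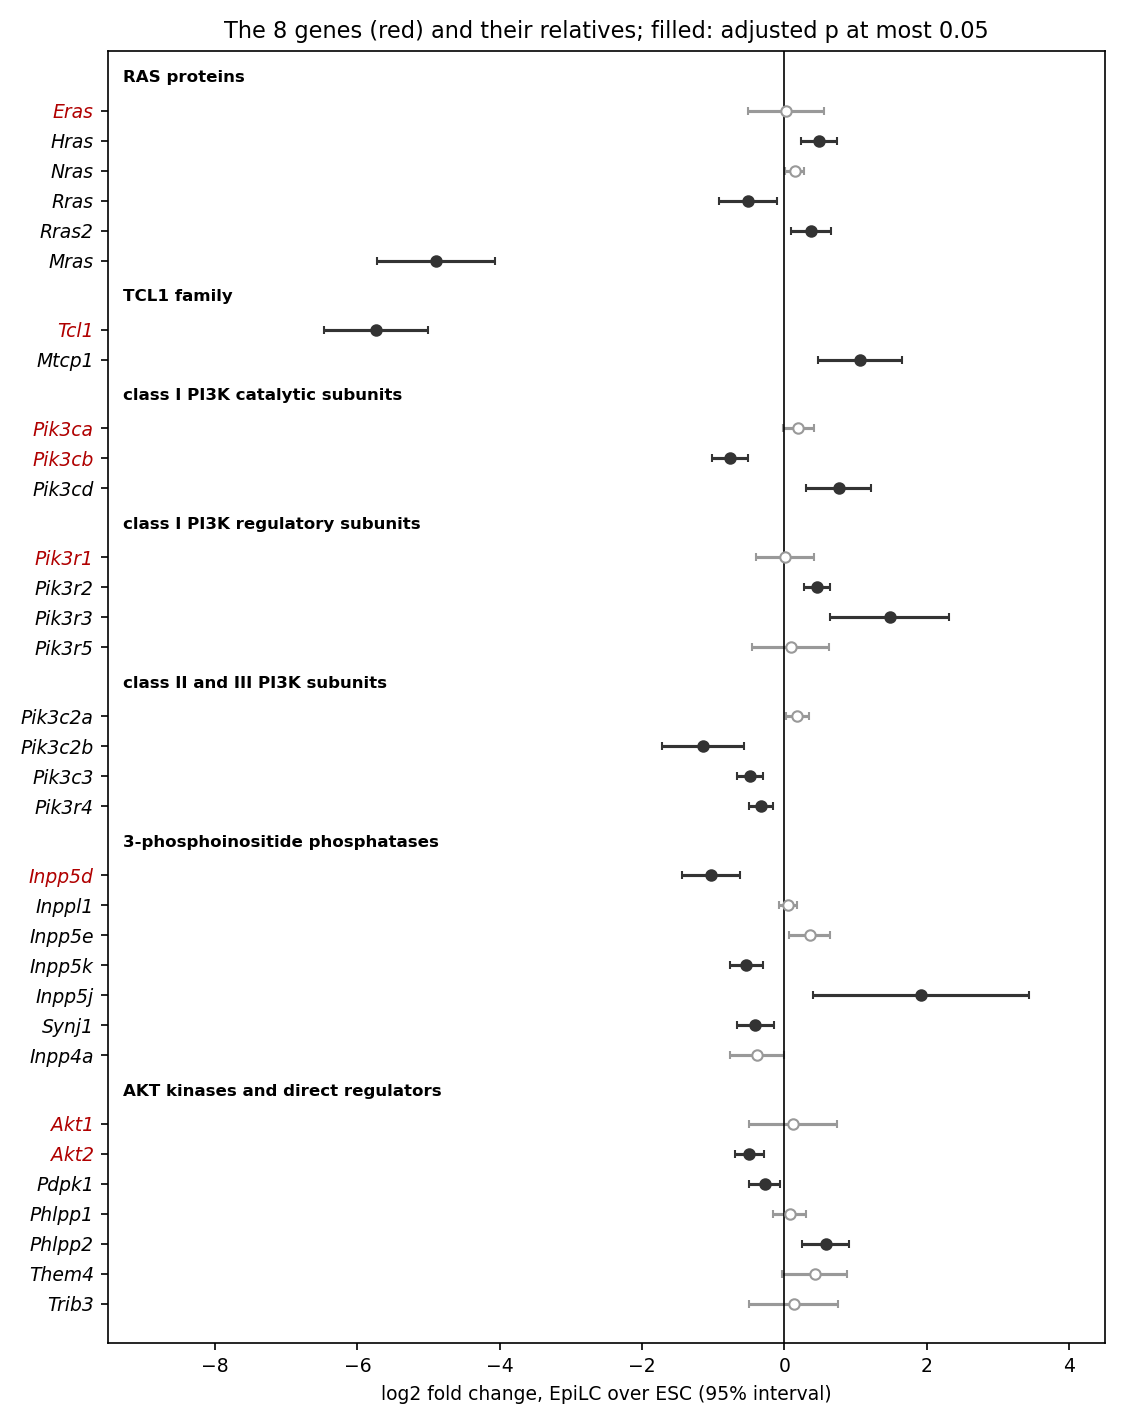
Log2 fold change of EpiLC over ESC (horizontal axis) with its 95% interval for the 8 genes (names in red) and their relatives, grouped by role. Filled points passed an adjusted p of 0.05. Tcl1 at -5.74 and Mras at -4.89 stand far to the left, Eras sits at 0.02, and Inpp5d is at -1.03.

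Akt2 was lower in EpiLCs by a small and even difference. The ESC libraries had 42.94, 49.53 and 39.97 TPM and the EpiLC libraries 32.13, 31.5 and 32.83 TPM. Each EpiLC library was below each ESC library, and the EpiLC values were nearly equal. The log2 fold change was -0.49 (SE 0.088, 95% interval -0.70 to -0.29, edgeR adjusted p = 0.00447), and the mean went from 44.1 ± 4.89 to 32.2 ± 0.665 TPM (SD, n = 3).

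Akt1, more abundant than Akt2 by mean in both groups, did not pass the test. The ESC libraries had 53.23, 86.95 and 39.22 TPM and the EpiLC libraries 66.25, 72.98 and 62.37 TPM. ESC replicate 2 was above all EpiLC libraries and the other ESC libraries were below them, so the ESC mean of 59.8 TPM had an SD of 24.5, against 67.2 ± 5.37 TPM in EpiLCs (SD, n = 3). The log2 fold change was 0.12 (SE 0.26, 95% interval -0.50 to 0.74, edgeR adjusted p = 0.726). Without ESC replicate 2 it was 0.49 and passed the test (edgeR adjusted p = 0.0222), and without ESC replicate 3 it was -0.10. The summed fibroblast markers had the same order among ESC libraries as Akt1, with replicate 2 highest and replicate 3 lowest, as did Akt2 and Pik3r1 but not the other 5 genes, and the part of feeder RNA in these values was not tested.

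Akt1 and Akt2 together summed to 96.17, 136.48 and 79.19 TPM in the ESC libraries and 98.38, 104.48 and 95.2 TPM in the EpiLC libraries, with the EpiLC totals inside the ESC range. Akt1 made up 56.2 ± 7.13% of this sum in ESCs and 67.6 ± 2.18% in EpiLCs (SD, n = 3), a difference of 11.4 points. Its ESC shares were 55.3, 63.7 and 49.5% and its EpiLC shares 67.3, 69.9 and 65.5%, so the groups did not overlap (two-sided exact permutation test, p = 0.1, the smallest possible with 3 against 3 libraries). ESC replicate 2 was nearest to the EpiLC shares, and without it the difference was 15.1 points.

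Among the genes that act on AKT directly, Phlpp2, which codes for an AKT phosphatase, was higher in EpiLCs (0.58, edgeR adjusted p = 0.0143), although not without ESC replicate 1, EpiLC replicate 1 or EpiLC replicate 2 (adjusted p between 0.0520 and 0.0627). Pdpk1, which codes for PDK1, was called lower (-0.28, edgeR adjusted p = 0.0436) but kept the call in only 3 of 13 alternatives, and it was lost without any one library other than ESC replicate 2, with adjusted p between 0.0726 and 0.129. Phlpp1 (0.07), Them4 (0.42) and Trib3 (0.13) did not pass the test, although Trib3 did without ESC replicate 3 (0.52, adjusted p = 0.0203).

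By TPM, which allows genes to be compared per length, the mean order in ESCs was Akt1 (59.8), Tcl1 (57.6), Akt2 (44.1), Pik3cb (23.3), Inpp5d (16.0), Eras (15.8), Pik3ca (11.3) and Pik3r1 (8.17). Akt1, Tcl1 and Akt2 overlapped among ESC libraries, as did Inpp5d and Eras, whereas the other neighbours in the order did not. In EpiLCs the order was Akt1 (67.2), Akt2 (32.2), Eras (16.6), Pik3cb (14.1), Pik3ca (13.4), Pik3r1 (8.52), Inpp5d (8.17) and Tcl1 (1.11). There Eras, Pik3cb and Pik3ca overlapped, as did Pik3r1 and Inpp5d. Tcl1 thus went from the level of the AKT genes to the last place, and Eras, whose difference did not pass the test, moved up past Pik3cb and Inpp5d.

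Further genes of the pathway were counted from lists of 93 genes other than the 8, of which 82 were tested. In EpiLCs 17 were higher, 23 were lower and 42 did not pass the test, so 48.8% were called, against 45.4% of all genes tested, and their median log2 fold change was -0.03. Without EpiLC replicate 1 the counts were 8 higher and 15 lower, and without EpiLC replicate 2 they were 11 and 19. Of the 16 genes of the mTOR complexes and TSC, 1 was higher and 3 were lower, with a median of -0.10, so 25% were called. Rictor, the defining subunit of mTORC2, which phosphorylates AKT, was the clearest of these (-0.69, SE 0.12, edgeR adjusted p = 0.00385). Mtor was lower by less (-0.37, edgeR adjusted p = 0.0158), and not without EpiLC replicate 1 (adjusted p = 0.0676) or 3 (adjusted p = 0.0585). The third lower gene, Rptor, and the higher one, Telo2, kept their calls in only 3 and 6 of 13 alternatives, and Rptor lost its call without any one library other than ESC replicate 2 (edgeR adjusted p up to 0.0985) and Telo2 without any one other than EpiLC replicate 3 (up to 0.156).

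Of 14 AKT substrates, 3 were higher and 1 was lower, with a median of 0.19, so 28.6% were called, against 45.4% of all genes tested. Foxo1, a transcription factor that AKT keeps out of the nucleus, went from 18.5 ± 0.942 to 30.1 ± 0.341 TPM (SD, n = 3), with a log2 fold change of 0.65 (SE 0.069, edgeR adjusted p = 5.81e-04). No other FOXO gene on this list passed the test. Tbc1d4 (1.00, edgeR adjusted p = 0.0181) and Tbc1d1 (0.35, edgeR adjusted p = 0.0225) were also higher, and Pfkfb2 (-0.60, edgeR adjusted p = 0.0200) was lower. These 3 genes kept their calls in 11, 10 and 11 of 13 alternatives, and Foxo1 in all 13. Of 15 FOXO target genes tested, 3 were higher and 5 were lower, with a median of 0.00, so 53.3% were called, against 45.4% of all genes tested. Bcl2l11, which codes for the pro-apoptotic protein BIM, was higher (1.47, edgeR adjusted p = 1.61e-04). Bcl6 (-3.08), Pdk4 (-1.15) and the mitochondrial superoxide dismutase gene Sod2 (-1.13) were lower.

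Of 17 receptor and adaptor genes upstream of PI3K, 2 were higher and 6 were lower, with a median of -0.28, so 47.1% were called, near the 45.4% of all genes tested. Kit, the receptor for stem cell factor, went from 41.3 ± 8.78 to 7.49 ± 1.24 TPM (SD, n = 3), a log2 fold change of -2.52 (SE 0.20, edgeR adjusted p = 2.06e-04). Pik3ip1, which codes for a transmembrane protein that binds p110 and inhibits PI3K, was at 10.26, 11.09 and 7.73 TPM across the ESC libraries and at 2.49, 2.37 and 1.85 TPM across the EpiLC libraries, a log2 fold change of -2.16 (SE 0.21, edgeR adjusted p = 4.25e-04). Pdgfra (-3.91) and Pdgfrb (-2.92) were also lower, and they are on the lists of primitive endoderm and fibroblast markers, respectively, which moved with the groups as given above. Without ESC replicate 1 the log2 fold change of Pdgfra was -3.31, and without ESC replicate 2 that of Pdgfrb was -1.94. The 3 ESC values of Pdgfrb, 7.23, 21.96 and 3.85 TPM, followed the summed fibroblast markers in order, and the part of feeder RNA in that difference was not tested.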

How the data were processed

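RNA-seq of 3 ESC and 3 EpiLC libraries of WT mouse cells was analysed, grouped by the sample labels, which give 48 h for EpiLCs whereas the culture methods of the study give 72 h. Reads were single-end, strand-specific and 76 nt long. The authors trimmed them with cutadapt 1.16, aligned them with STAR 2.5.2a and quantified mm10 RefSeq genes by strand with RSEM 1.3.0, and the submitters' processing notes also name DESeq2 1.16.1. The expected counts that the authors deposited are unnormalized estimates that divide reads shared by several loci, and between 4.27% and 4.65% per library were not whole. Beside them the authors deposited TPM, scaled by transcript length and library size.

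Expected counts were rounded, filtered with filterByExpr (14468 of 24736 genes kept), normalized by TMM (factors 0.979 to 1.02) and tested over all 6 libraries with edgeR 4.0.16 (R 4.3.3, quasi-likelihood test, no block). P-values were adjusted over all genes tested (Benjamini-Hochberg), and 0.05 was the threshold. SE is the log2 fold change over the square root of F, and intervals are 95% from the t distribution. Shares of summed TPM were compared by two-sided exact permutation tests. Likeness was Pearson's r of log2 CPM (prior count 2) over 6 libraries. Depth limits low genes, and counts carry counting error in addition to the spread between replicates.

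Alternatives were upper-quartile normalization, DESeq2 1.42.0, no filter, at least 10 counts in every library, the replicate number as a block, limma 3.58.1 on log2(TPM + 1) and log2(TPM + 0.1), and leaving out each library. The 8 genes and all lists were chosen with earlier results of these data known. Named genes were the 8, all members of the RAS, TCL1, PI3K, phosphatase and AKT lists (a few listed genes are not reported here and were left out of the counts and sums), up to 4 called genes with the largest change from each other pathway list, the 5 most alike, the 5 neighbours on each side of Eras and Tcl1, and marker genes. Promoters were taken from RefSeq on GRCm38.p6, in which all 8 genes matched, and exons from GENCODE vM21.

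On simulated counts for 14320 genes with 193 changed between EpiLCs and ESCs, the edgeR test called 136, with 57.1% of 2-fold and 84.2% of 4-fold changes recovered, 12 false calls and 0 of the wrong sign. The simulated share of changed genes was far below the 45.4% called in the data, so these rates need not hold for the real comparison.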

Additional observations from a re-analysis of the deposited data

How the results depend on the processing

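Tcl1, Inpp5d, Pik3cb and Akt2 were lower and past the threshold in all 13 alternatives, and the count of the 8 genes called lower was 4 in each. The count called higher was 0 in all but 1 alternative and ranged from 0 to 1 when single libraries were left out. Under the same omissions the log2 fold change ranged from -0.14 to 0.19 for Eras, -0.10 to 0.49 for Akt1, -0.11 to 0.23 for Pik3r1, -0.0569 to 0.17 for Pik3r5 and -0.0857 to 0.52 for Trib3. Genes called ranged from 4244 to 7181 (2144 to 3572 higher, 2100 to 3609 lower), other pathway genes from 8 to 19 higher and from 15 to 25 lower, and the difference in the share of Eras from -1.17 to 0.23 points. The lowest counts were those without EpiLC replicate 1, for which the cause was not tested. Of the 5 most like genes, 0 to 2 remained for Eras, 0 to 3 for Tcl1 and 0 to 2 for Inpp5d. With log2(TPM + 1), 0 remained for Eras and 2 for Tcl1, and the genes called with a log2 fold change below -1 were 1023 instead of 1657, for which the cause was not tested. A replicate block left 6085 genes called, and the log2 fold change was -5.71 for Tcl1, -1.003 for Inpp5d, -0.77 for Pik3cb, -0.49 for Akt2 and 0.01 for Eras, with no call among the 8 changed. Libraries of the same number correlated in their deviations with r = 0.00668, 0.186 and 0.17 for numbers 1, 2 and 3, and libraries of numbers 2 and 3 but not 1 correlated best with their own number, so the numbers were not taken as pairs. Over the 40 other pathway genes named and tested, and all alternatives, 444 values were on the same side of the threshold in the same direction, 66 lost the threshold, 7 gained it and 2 changed sign. Over 67 tested neighbours, most alike genes and markers, the numbers were 804, 22, 9 and 24, and 0 of the changes of sign concerned a gene called. Tcl1b1 to Tcl1b5 had 0 counts at these depths, Pik3cg, Pik3r6 and Inpp4b had too few for a test, and Inpp5j was called at few counts.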
